A study of Homo sapiens with 60 samples.

Results

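The genes described here are 10 regulators of splicing: the SR splicing factors SRSF1, SRSF2, SRSF3, SRSF5, SRSF6, SRSF7, and SRSF11, the splicing activator TRA2A, and the kinases CLK1 and CLK4. They were found by their gene names among the 62703 genes of the count table, and all 10 passed the filter on low counts. The 1321N1 cell line, which is derived from an astrocytoma, was treated with 2.55 µM sodium metaarsenite, 2.3 µM cadmium chloride, or 20 µM mercury chloride, or was left non-treated, and was lysed after 1.5, 3, 6, 12, or 24 h. Each metal and time point had 3 libraries, which gave 20 groups and 60 libraries of 3′ mRNA sequencing. The doses were chosen by the study for an equal loss of viability, so they differ in concentration, and 1321N1 is a tumor line grown in serum-containing medium.

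SR proteins bind short RNA motifs through their RNA recognition motifs and recruit the splicing machinery through a tail rich in arginine and serine. CLK kinases phosphorylate that tail, which releases SR proteins from nuclear speckles and sets how much of them is available at sites of transcription. Several SR genes limit their own output by splicing in exons that mark the transcript for nonsense-mediated decay, and CLK1 and CLK4 transcripts are often kept in the nucleus with introns retained. The 3′ end reads counted here give a level for each gene and do not tell such isoforms apart.

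The libraries held 2215276 to 4404609 counted reads, with a median of 3291417, and the median was 3248664 for non-treated, 3307489 for arsenic, 3227059 for cadmium, and 3427793 for mercury libraries. Across genes, replicate libraries correlated at 0.958 to 0.978 in 60 pairs, and none stood apart from the rest. The series description calls the triplicates technical, so the p values measure the spread between these libraries and may not cover that between independent cultures. Of the astrocyte markers, VIM and CD44 were abundant, at median levels of 4556 and 390 CPM, the count relative to a normalized library size, whereas GFAP and S100B had at most 3 counts and AQP4 and ALDH1L1 had 0 counts in every library. A lower RNA level per cell and a smaller number of expressing cells cannot be told apart in these bulk samples.

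The 10 genes were expressed at very different levels. In non-treated cells, SRSF11, an SR-related protein, was highest with 801 ± 48.0 CPM (SD, n = 15). It was followed by SRSF2 with 580.1 ± 58.5 CPM, SRSF3 with 403 ± 25.9 CPM, SRSF1 with 306 ± 19.5 CPM, and SRSF7 with 231 ± 30.5 CPM. SRSF6 had 184 ± 26.6 CPM, SRSF5 had 157 ± 38.3 CPM, and TRA2A had 96.7 ± 9.68 CPM. The kinases were far lower, with 27.0 ± 6.77 CPM for CLK1 and 7.78 ± 2.12 CPM for CLK4. Each 3′ read stands for a transcript end, so these CPM values can be set side by side without division by length. The ranges of neighbors in this order overlapped for SRSF11 and SRSF2, SRSF1 and SRSF7, SRSF7 and SRSF6, SRSF6 and SRSF5, and SRSF5 and TRA2A, and did not overlap for the other 4 neighboring pairs. The spread over non-treated libraries was widest for CLK4, CLK1, and SRSF5, with coefficients of variation of 27.3%, 25.1%, and 24.4%. CLK4 was covered by 6 to 40 reads per library and CLK1 by 53 to 183, against 1608 to 3698 for SRSF11. The last exonic bases of SRSF1 and SRSF6 lie partly within exons of another gene on the same strand (28.5% and 17.3% of these bases). The counting left out reads that overlapped more than 1 gene, so that the levels of SRSF1 and SRSF6 may be understated. Of the 50-base stretches in the gene ends, 20.5% for SRSF1, 21.7% for SRSF6, and 1.85% for SRSF3 also occur in transcripts of other genes.

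To determine which of these genes responded, arsenic, cadmium, and mercury were each set against non-treated cells lysed at the same time. A gene was called at an adjusted p under 0.05 in edgeR's quasi-likelihood test over 12341 genes with Benjamini-Hochberg adjustment. Of the 150 tests of the 10 genes, 5 were called, and all of these were tests of CLK1. CLK1 rose in mercury at 1.5, 3, 12, and 24 h and fell in arsenic at 12 h. For arsenic, 0 of the 10 genes were called at 1.5, 3, 6, and 24 h and 1 at 12 h, where 0.0729%, 0.138%, 0.916%, 14.3%, and 4.11% of all tested genes were called, in the same order. Cadmium gave 0 called genes of 10 at every time point, against 0%, 0.203%, 2.05%, 8.18%, and 2.19% of all genes from 1.5 to 24 h. Over its 50 tests, 7 had an unadjusted p under 0.05, and DESeq2 called 1 of them, SRSF11 at 6 h. For mercury, 1 of 10 was called at 1.5, 3, 12, and 24 h, against 0.567%, 1.55%, 16%, and 27.8% of all genes, and 0 of 10 at 6 h, against 7.48%.

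CLK1 lies on the minus strand at chr2:200853009-200864691 (GRCh38), and CLK4 at chr5:178602664-178630615 on the same strand. Because CLK1 was the gene that changed and CLK4 is its close relative, the 250 bases before a transcription start of each are shown 5′ to 3′ from RefSeq (GRCh38.p14). For CLK1 they span chr2:200864659-200864908 and for CLK4 chr5:178627051-178627300, each read from the minus strand, and capitals mark matches to a metal response element or an antioxidant response element.
CLK1: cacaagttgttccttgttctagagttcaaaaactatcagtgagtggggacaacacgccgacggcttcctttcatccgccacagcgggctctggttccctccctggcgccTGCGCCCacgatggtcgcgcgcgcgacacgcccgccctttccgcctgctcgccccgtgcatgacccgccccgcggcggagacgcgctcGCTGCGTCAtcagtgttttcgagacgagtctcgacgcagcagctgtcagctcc
CLK4: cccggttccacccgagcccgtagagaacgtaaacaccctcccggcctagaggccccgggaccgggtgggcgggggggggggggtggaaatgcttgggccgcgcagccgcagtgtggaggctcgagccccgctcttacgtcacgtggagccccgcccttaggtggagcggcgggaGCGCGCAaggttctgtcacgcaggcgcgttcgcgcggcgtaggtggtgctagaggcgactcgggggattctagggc

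The CLK1 sequence holds TGCGCNC, the G form of the metal response element core, 141 bases before the start, and TGACNNNGC, the antioxidant response element core, on the opposite strand 53 bases before the start, without overlap. In the CLK4 sequence, the G form of the metal response element core lies on the opposite strand 76 bases before the start. Both strands were searched in the 300 bases around each start, and 11 such promoters were found for 8 of the 10 genes. SRSF7, SRSF11, and CLK1 had more than 1 promoter, and those of SRSF7 and those of CLK1 overlap. The counts that follow are of genes, whereas the shares are of single promoters, so they are not like for like. The G form of the metal response element core was present for 4 of these 8 genes (CLK1, CLK4, SRSF1, and SRSF6) and in 20.0% of 35116 human promoters. The antioxidant response element core was present for 3 (CLK1, SRSF1, and SRSF5) and in 13.3% of all promoters. The A form of the metal response element core, TGCACNC, the heat-shock element core, GAANNTTC, and the cyclic AMP response element, TGACGTCA, were in none of the 11 promoters, and in 12.1%, 6.77%, and 1.85% of all promoters. The CCAAT box was found for SRSF3 and the TATA box, TATAAA, for SRSF3, SRSF7, and SRSF11, against 34.6% and 11.5% of all promoters. The TATAAA match lay 30 bases before the start for SRSF3 and 27 bases before it in only 1 promoter of SRSF7. In only 1 promoter of SRSF11 it lay on the opposite strand, 206 bases before the start.

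CLK1 was already higher in mercury after the shortest exposure. At 1.5 h, the mercury libraries had 44.1, 40.5, and 41.6 CPM and the non-treated libraries had 21.7, 19.9, and 21.1 CPM. The groups were well separated, with a log2 fold change (LFC) of 1.01 (SE 0.19, fold 2.01, adjusted p = 0.000909). At 3 h, mercury gave 47.3, 47.0, and 47.7 CPM against 31.4, 23.7, and 29.3 CPM, again without overlap. This LFC was 0.75 (SE 0.18, adjusted p = 0.0123).

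At 6 h the mercury values of CLK1 (44.5, 44.1, and 35.1 CPM) overlapped with those of the non-treated cells (27.8, 37.7, and 34.7 CPM). The LFC of 0.30 (95% confidence interval -0.07 to 0.67) did not pass the test, with an adjusted p of 0.390. The difference was called again at 12 h, where mercury gave 58.9, 59.3, and 51.8 CPM and non-treated cells gave 36.6, 35.2, and 19.6 CPM. Here the LFC was 0.90 (SE 0.18, adjusted p = 0.000152). At 24 h, mercury gave 42.5, 49.0, and 42.95 CPM against 21.4, 18.4, and 26.3 CPM, with an LFC of 1.02 (SE 0.19, fold 2.03, adjusted p = 1.75e-05). Over all time points, CLK1 ranged from 35.1 to 59.3 CPM in 15 mercury libraries and from 18.4 to 37.7 CPM in 15 non-treated libraries. The call at 3 h was lost without replicate 2 of mercury (LFC 0.75, adjusted p = 0.0502) or replicate 2 of the non-treated cells (LFC 0.64, adjusted p = 0.158). No change of a metal's effect on CLK1 between adjacent time points passed the test (lowest adjusted p = 0.248), so that the smaller difference at 6 h was not shown to differ from those at 3 and 12 h.

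**Figure D1:**
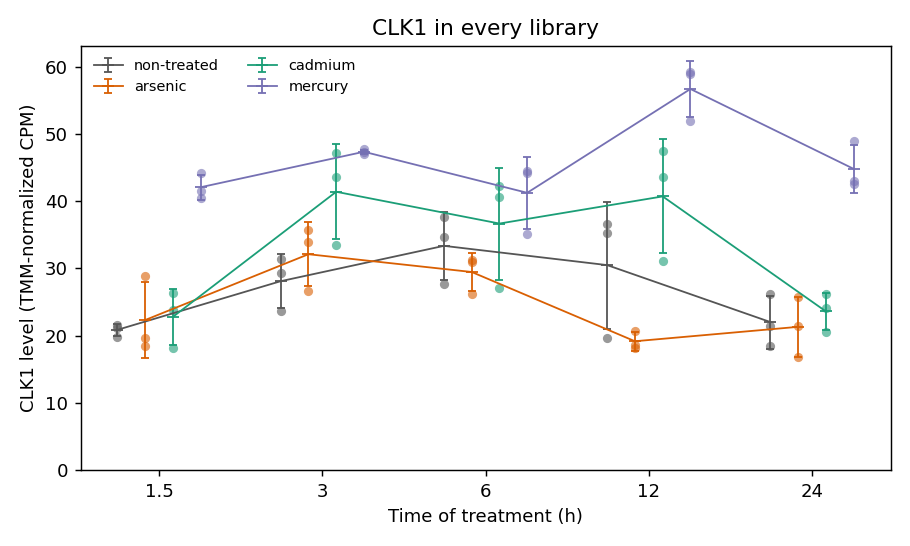
CLK1 level in TMM-normalized CPM (vertical axis, from 0) against time of treatment (horizontal axis, categories from 1.5 to 24 h) for non-treated, arsenic, cadmium, and mercury-treated cells. Points are libraries, lines join the means of 3 libraries, and bars are the SD; mercury lies above the non-treated libraries without overlap at 1.5, 3, 12, and 24 h, and arsenic lies near 19.2 CPM at 12 h.

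In arsenic, CLK1 was lower than in non-treated cells at 1 time point. It had 20.7, 18.1, and 18.7 CPM at 12 h, with a mean of 19.2 CPM against 30.5 CPM in non-treated cells. Replicate 3 of the non-treated cells, at 19.6 CPM, lay within the arsenic range, and the LFC was -0.66 (SE 0.20, adjusted p = 0.0353). This call was lost without replicate 1 or 2 of the non-treated cells (LFC -0.50 and -0.55, adjusted p = 0.289 and 0.223) and without replicate 1, 2, or 3 of arsenic (LFC -0.72, -0.63, and -0.64, adjusted p = 0.0681, 0.125, and 0.107). It was also lost in a fit of only the 6 libraries compared (adjusted p = 0.103). At the other 4 time points the arsenic LFC of CLK1 was 0.10, 0.20, -0.18, and -0.05, and the groups overlapped at each.

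For cadmium, the CLK1 estimates were above 0 at all 5 time points and none passed the test. The highest was at 3 h, with 43.6, 47.1, and 33.5 CPM against 31.4, 23.7, and 29.3 CPM, which did not overlap. Its LFC was 0.56 (95% confidence interval 0.19 to 0.93, unadjusted p = 0.00385, adjusted p = 0.307). At 12 h the LFC was 0.42 (95% confidence interval 0.04 to 0.79, adjusted p = 0.172), and at 1.5, 6, and 24 h it was 0.12, 0.12, and 0.10. The intervals at 1.5, 6, and 24 h leave room for a rise of up to 0.53, 0.50, and 0.50 on the log2 scale.

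CLK4, a kinase of the same family, was called in 0 of 15 comparisons by edgeR and in 0 by DESeq2, and 0 had an unadjusted p under 0.05. Its LFC ranged from -0.73 (mercury, 12 h) to 0.14 (cadmium, 6 h). The mercury libraries at 12 h had 4.09, 5.51, and 5.12 CPM against 9.23, 8.65, and 6.81 CPM in non-treated cells, with an adjusted p of 0.236. The median SE was 0.39, and its 95% confidence intervals reached from -1.54 to 0.94. In mercury at 1.5, 12, and 24 h the upper limits for CLK4 were 0.74, 0.08, and 0.84, below the CLK1 estimates of 1.01, 0.90, and 1.02. At 3 h the upper limit of 0.84 lay above the CLK1 estimate of 0.75. The CLK1 estimates carry errors of their own, with 95% confidence intervals of 0.62 to 1.40 at 1.5 h and 0.54 to 1.26 at 12 h. In mercury, the intervals of CLK1 and CLK4 overlapped at 1.5, 3, and 24 h and did not overlap at 12 h. The changes of these genes were not tested against each other.

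For the 7 SRSF genes and TRA2A, no difference from non-treated cells was called in the fit of all libraries. Of their 120 tests, 0 were called by edgeR, 16 had an unadjusted p under 0.05, and DESeq2 called 1 (SRSF11 in cadmium at 6 h). The share of all genes with such an unadjusted p was not determined. With edgeR, 3 were called without the low-count filter, 1 with a stricter filter, and 1 with the replicate number as a block. Fits of only the 6 libraries compared called 2, and RLE size factors called 0. In fits without 1 library, 6 of 720 tests were called. Their LFC ranged from -0.36 (SRSF2, arsenic, 12 h) to 0.33 (SRSF7, cadmium, 6 h). All 120 of their 95% confidence intervals lay between -0.60 and 0.59, which corresponds to 0.661 to 1.51 times the non-treated level, and 111 lay within 0.5 of 0. Over the 15 comparisons, the median absolute LFC of these 8 genes ranged from 0.0402 to 0.173, beside 0.147 to 0.358 over all genes tested. The median over all genes was 0.172 even in cadmium at 1.5 h, where 0 of them were called. All genes tested include many at lower levels and were not matched to these 8. The values therefore do not show that these 8 genes were steadier than others of their level. The values were nearest in cadmium at 6 h (0.173 beside 0.202) and farthest apart in mercury at 24 h (0.0890 beside 0.358).

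**Figure D2:**
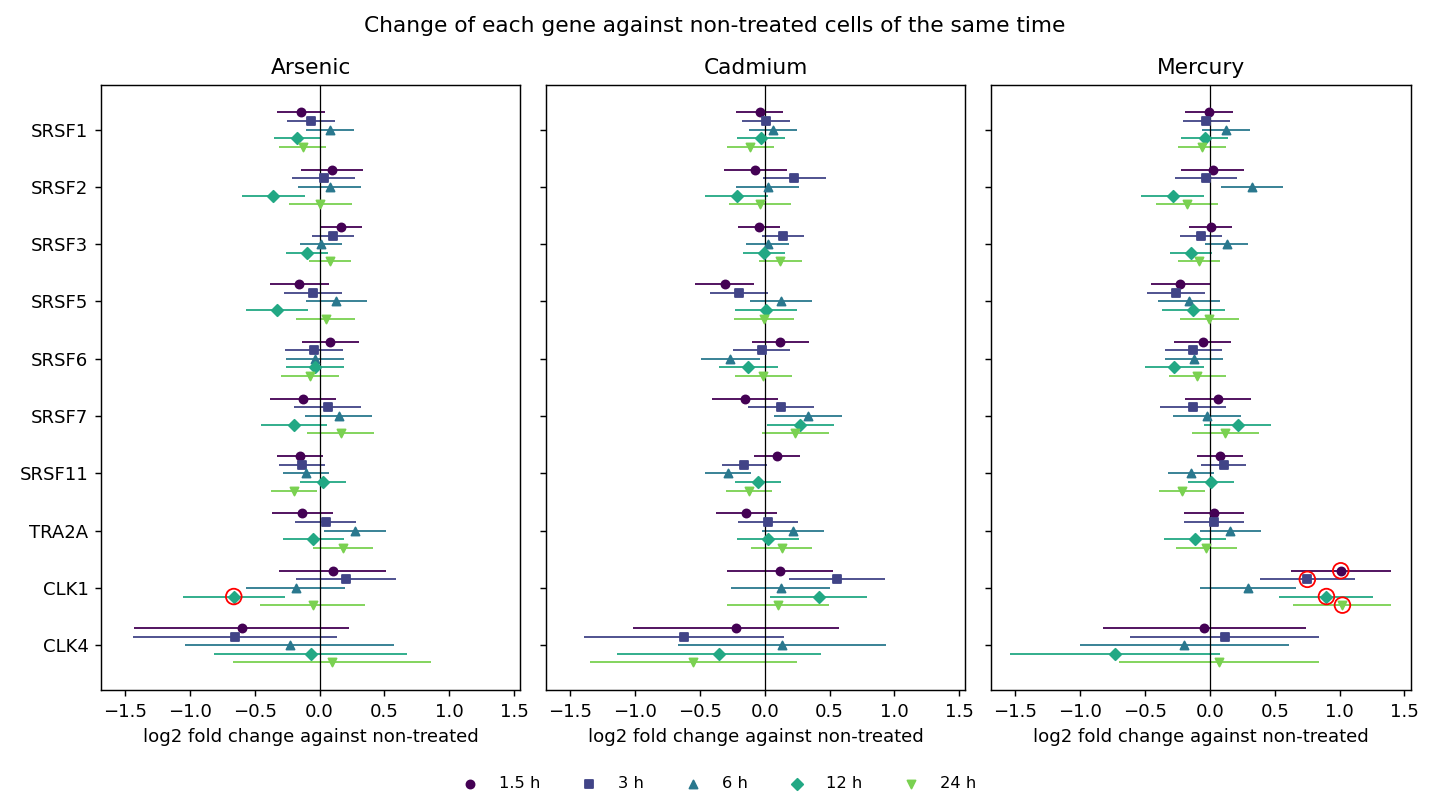
LFC against non-treated cells of the same time (horizontal axis) for each of the 10 genes (vertical axis) in arsenic, cadmium, and mercury; symbols mark the time points, bars are 95% confidence intervals, and red circles mark tests with an adjusted p under 0.05. All 5 circles belong to CLK1, and the SRSF genes and TRA2A lie between -0.36 and 0.33.

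Among the SR genes, SRSF2, which binds exonic splicing enhancers, had the widest range of estimates. At 12 h, arsenic gave 483, 513, and 493 CPM and non-treated cells gave 645, 710.0, and 552 CPM, which did not overlap (LFC -0.36, SE 0.12, adjusted p = 0.0835). In mercury, SRSF2 had 731, 775, and 561 CPM at 6 h against 528, 581, and 540.4 CPM, with an LFC of 0.32 (adjusted p = 0.0876). At 12 h, mercury had 568, 465, and 529 CPM and the LFC was -0.29 (adjusted p = 0.0965). All 3 of these differences passed the test without the low-count filter (adjusted p = 0.0116, 0.00765, and 0.0319). Both differences at 12 h also passed in fits of only the 6 libraries compared (adjusted p = 0.0400 for arsenic and 0.0210 for mercury) and without replicate 3 of the non-treated cells (LFC -0.45 and -0.38, adjusted p = 0.0348 and 0.0428). The differences at 12 h share the same non-treated libraries, so they are not separate evidence. The mean of these libraries was 635 CPM, against 520 to 606 CPM in non-treated cells at the other time points. The difference at 6 h passed without replicate 3 of mercury (LFC 0.46, adjusted p = 0.0121).

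The change in the mercury effect on SRSF2 between 6 and 12 h, from an LFC of 0.32 to -0.29, was itself tested. It was -0.61 (SE 0.17, adjusted p = 0.0423) and was the only 1 of 120 such changes of the 10 genes that was called. From 6 to 12 h, the SRSF2 mean went from 689 to 521 CPM in mercury and from 550 to 635 CPM in non-treated cells. Between 1.5 and 3, 3 and 6, 6 and 12, and 12 and 24 h, 0.113%, 0.324%, 1.92%, and 0.624% of all genes were called for mercury. The same shares were 0.0324%, 0.0648%, 0.308%, and 1.57% for arsenic and 0.0729%, 0.348%, 0.324%, and 0.381% for cadmium, with 0 of the 10 genes called. Of the 40 tests each, 5 for arsenic and 1 for cadmium had an unadjusted p under 0.05, and DESeq2 called 0. The SRSF2 call was lost in 9 of the 12 fits that each left out 1 library of these groups: replicates 1 and 2 of mercury at 6 h, replicates 2 and 3 of mercury at 12 h, all 3 non-treated libraries at 6 h, and replicates 1 and 2 of the non-treated cells at 12 h. Its estimate there ranged from -0.74 to -0.52, with adjusted p up to 0.175.

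SRSF11 had the lowest adjusted p of the SR genes. In mercury at 24 h it had 687, 654, and 733 CPM against 779, 867, and 765 CPM, with all treated libraries below all non-treated ones. The LFC was -0.22 (SE 0.09, adjusted p = 0.0579). It passed the test with the replicate number as a block (adjusted p = 0.0469), although the replicate numbers did not pair the libraries. In cadmium at 6 h, SRSF11 had 679, 742, and 638 CPM against 874, 789, and 846 CPM, with an LFC of -0.29 (adjusted p = 0.0764) in edgeR and -0.28 (adjusted p = 0.0426) in DESeq2. With a stricter low-count filter its adjusted p was 0.0451.

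The remaining SR genes had 0 calls in the same comparisons in the fit of all libraries. SRSF1, the prototype of the family, lay between an LFC of -0.17 and 0.13 over the 15 comparisons, with 0 unadjusted p under 0.05. SRSF3, a small SR protein that also acts in mRNA export, lay between -0.14 and 0.17. For TRA2A, which together with SR proteins activates weak exons, the range was -0.14 to 0.27, with the highest value in arsenic at 6 h (110, 102, and 115 CPM against 76.7, 104, and 90.2 CPM, adjusted p = 0.417). SRSF7, which binds RNA with the help of a zinc knuckle, ranged from -0.20 to 0.33. SRSF5 and SRSF6 ranged from -0.33 to 0.13 and from -0.27 to 0.12, and 4 of 15 tests of SRSF5 had an unadjusted p under 0.05, all with negative estimates.

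**Figure D3:**
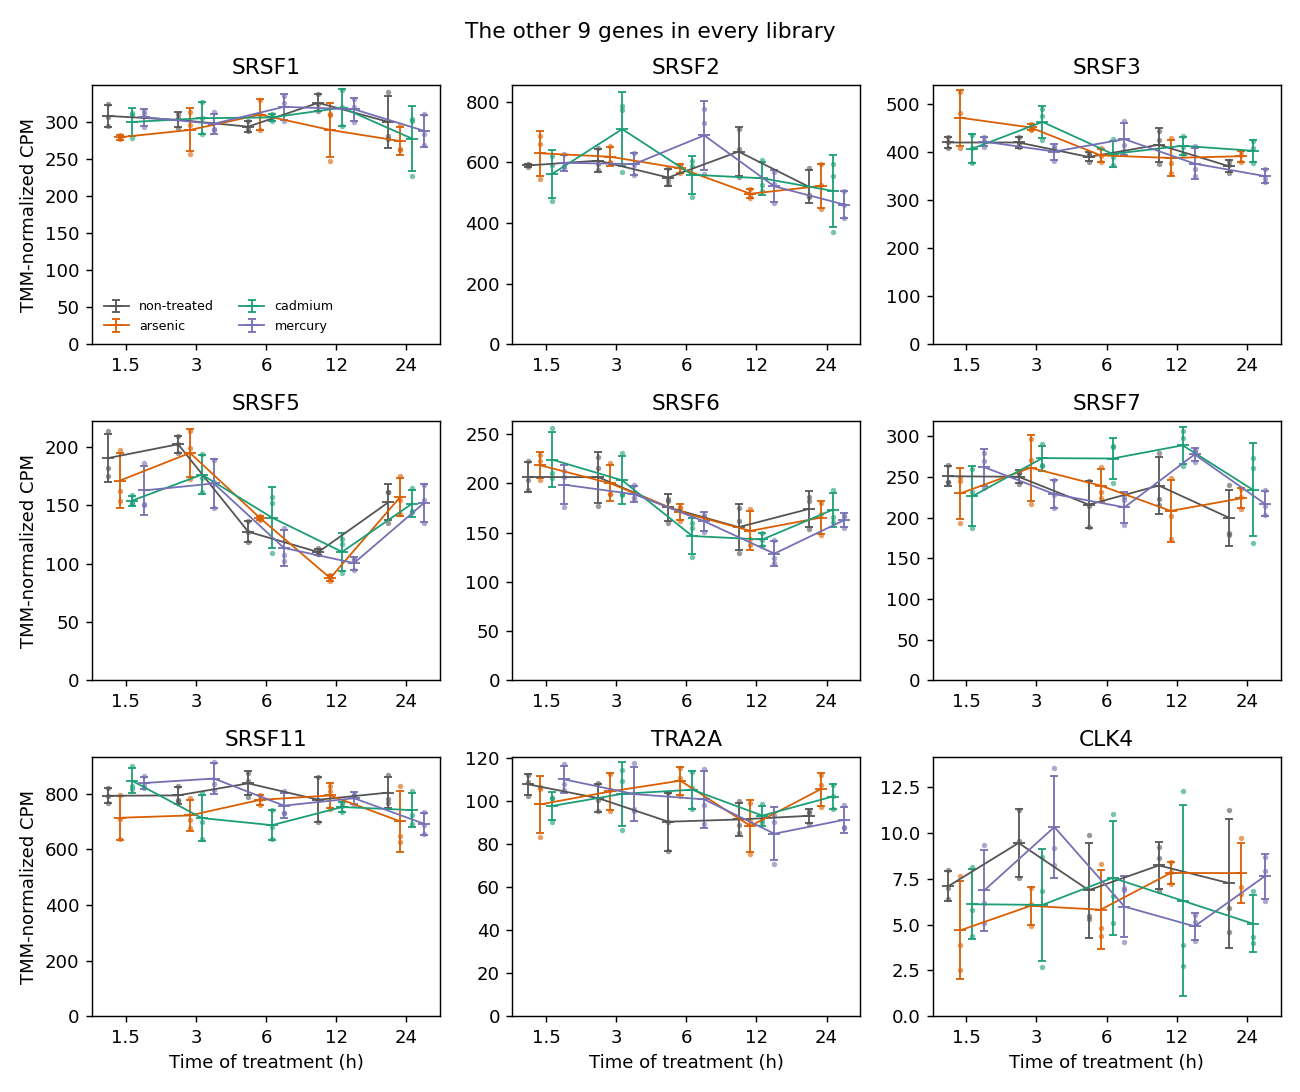
TMM-normalized CPM (vertical axes, from 0, each gene on its own scale) against time of treatment in h for the 9 genes other than CLK1, in non-treated, arsenic, cadmium, and mercury-treated cells. Points are libraries and bars are the SD around the mean of 3 libraries. The means of SRSF5 and SRSF6 are lower at 12 h than at 1.5 h in all 4 arms, which was tested only in non-treated cells. SRSF5 was at 191 CPM at 1.5 h and 110 CPM at 12 h in non-treated cells.

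The metals were then compared with each other at the same time point. These estimates do not use the non-treated libraries, which enter only the shared filter, normalization, and spread. Of 150 tests of the 10 genes, 8 were called, 6 for CLK1 and 2 for SRSF7. CLK1 was lower in arsenic than in mercury at 1.5 h (LFC -0.91, adjusted p = 0.00239), at 12 h (LFC -1.56, SE 0.19, adjusted p = 4.5e-09), and at 24 h (LFC -1.08, adjusted p = 2.95e-05). At 12 h this is 0.339 times the mercury level, with 18.1 to 20.7 CPM in arsenic and 51.8 to 59.3 CPM in mercury. In cadmium, CLK1 was lower than in mercury at 1.5 h (LFC -0.89, adjusted p = 0.00334) and at 24 h (LFC -0.92, adjusted p = 0.000154). The call at 1.5 h was lost without replicate 3 of cadmium (LFC -0.75, adjusted p = 0.111). Arsenic was also below cadmium at 12 h, with 43.6, 31.2, and 47.4 CPM in cadmium (LFC -1.08, SE 0.20, adjusted p = 7.26e-05).

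At 3 and 6 h, none of the direct tests of CLK1 passed. Cadmium and mercury had LFCs of -0.19 and -0.17 (95% confidence intervals -0.55 to 0.16 and -0.54 to 0.19), and arsenic and mercury had LFCs of -0.55 and -0.48 (adjusted p = 0.123 and 0.128). At 12 h, cadmium lay below mercury with an LFC of -0.48 (adjusted p = 0.153), and their libraries did not overlap. SRSF7 was lower in arsenic at 12 h, with 174, 202, and 248.6 CPM, than in cadmium, with 263, 297, and 306 CPM, and in mercury, with 283, 282, and 268 CPM. The LFC was -0.47 (SE 0.13, adjusted p = 0.0145) against cadmium and -0.41 (SE 0.13, adjusted p = 0.0353) against mercury. SRSF7 in non-treated cells at 12 h had 215, 279, and 223 CPM, with a mean of 239 CPM.

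The SRSF7 calls depended on single libraries. Against cadmium, the call was lost without replicate 1 or 2 of arsenic (LFC -0.36 and -0.45, adjusted p = 0.200 and 0.0724) or replicate 2 or 3 of cadmium (LFC -0.45 and -0.43, adjusted p = 0.0678 and 0.0916). Against mercury, it was lost without replicate 1 or 2 of arsenic (LFC -0.30 and -0.40, adjusted p = 0.301 and 0.123) or any 1 of the mercury libraries (LFC -0.44 to -0.41, adjusted p = 0.0616 to 0.110). Of all genes, 0%, 0.138%, 1.18%, 5.77%, and 10.2% were called between arsenic and cadmium from 1.5 to 24 h, with 0, 0, 0, 2, and 0 of the 10 genes. Between arsenic and mercury, the shares were 1.56%, 1.89%, 4.48%, 6.84%, and 11.4%, with 1, 0, 0, 2, and 1 of 10. Between cadmium and mercury, they were 0.656%, 1.78%, 3.78%, 3.29%, and 20%, with 1, 0, 0, 0, and 1 of 10.

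In the fit of all libraries, SRSF5 and SRSF6 were called between time points of the non-treated cells and for none of the metals. In non-treated cells, SRSF5 had 214, 182, and 175 CPM at 1.5 h, 127, 136, and 118 CPM at 6 h, and 108, 113, and 108 CPM at 12 h. Relative to 1.5 h, its LFC was -0.58 at 6 h (SE 0.12, adjusted p = 0.00468) and -0.80 at 12 h (SE 0.12, adjusted p = 4.64e-06). All libraries at 6 and 12 h lay below all of those at 1.5 h. At 24 h it had 135, 161, and 162 CPM (LFC -0.32, adjusted p = 0.103). The call at 6 h was lost without replicate 1 at 1.5 h (LFC -0.50, adjusted p = 0.0823) or replicate 3 at 6 h (LFC -0.54, adjusted p = 0.0677).

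SRSF6 had 204, 194, and 223 CPM at 1.5 h and 162, 129, and 175 CPM at 12 h in non-treated cells, with an LFC of -0.41 (SE 0.11, adjusted p = 0.0217). That call was lost without replicate 1 or 3 at 1.5 h (LFC -0.42 and -0.36, adjusted p = 0.0623 and 0.0991) or replicate 1 or 2 at 12 h (LFC -0.45 and -0.30, adjusted p = 0.0520 and 0.177). In metal-treated cells, the means of both genes were also lower at 12 h, but these arms were not tested against 1.5 h. At 12 h, the mean SRSF5 level was 0.512 to 0.715 times that at 1.5 h of the same arm and the mean SRSF6 level was 0.638 to 0.753 times. In each of the 4 arms all libraries at 12 h lay below all of those at 1.5 h. The share of all genes that separate in this way was not determined, and both genes were already called in non-treated cells. These 3 calls were the only ones among 40 tests of the 10 genes in non-treated cells against 1.5 h, with 0, 1, 2, and 0 of 10 genes called from 3 to 24 h. The shares of all genes called were 0.122%, 0.486%, 4.09%, and 3.29%. CLK1 itself had LFCs of 0.43, 0.68, 0.54, and 0.08 at 3, 6, 12, and 24 h in non-treated cells, with adjusted p of at least 0.118.

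The wider splicing machinery was described by 6 lists of genes. Of the remaining SR genes, 5 of 6 were tested, as were 10 of 11 other SR kinases, phosphatases, and the SR importer, 16 of 16 SR-related speckle proteins, 22 of 22 hnRNP genes, 28 of 28 core spliceosome genes, and 9 of 10 genes of nonsense-mediated decay. Some genes of these lists are named because they were called or belong to the 3 genes with the largest mean change in their list, and thus after their values were seen. At 24 h in mercury, 13.9% of all genes were higher and 13.9% lower. There, hnRNP genes had 1 higher (HNRNPLL) and 6 lower of 22, and core spliceosome genes had 1 higher (SNRPB) and 7 lower of 28. Speckle proteins had 1 higher (RSRC2) and 3 lower (SRRM1, RSRC1, and NKTR) of 16. The median LFC was -0.17 for hnRNP genes and -0.06 for core spliceosome and speckle genes, beside -0.02 over all genes and -0.07 for the 7 SRSF genes and TRA2A.

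HNRNPDL, an hnRNP protein that binds AU-rich RNA, was called in 6 of the 15 comparisons. At 24 h it had 436 ± 17.5 CPM in mercury and 789 ± 18.04 CPM in non-treated cells (SD, n = 3), with an LFC of -0.86 (SE 0.07, adjusted p = 1.68e-15). It was lower in mercury also at 6 and 12 h (LFC -0.38 and -0.64, adjusted p = 8.84e-05 and 1.51e-10), in arsenic at 12 and 24 h (LFC -0.42 and -0.59, adjusted p = 2.27e-05 and 1.97e-09), and in cadmium at 12 h (LFC -0.31, adjusted p = 0.00191). At 12 h in mercury, 6 of 22 hnRNP genes and 6 of 28 core spliceosome genes were called, all lower, beside 16% of all genes. NKTR, a cyclophilin-related speckle protein, was lower in mercury at 6, 12, and 24 h (LFC -0.63, -0.49, and -0.39, adjusted p = 0.000156, 0.00258, and 0.0116) and in cadmium at 6 h (LFC -0.46, adjusted p = 0.0235). RSRC2, in contrast, was higher in cadmium at 12 and 24 h (LFC 0.45 and 0.50, adjusted p = 0.00564 and 0.00424) and in mercury at 24 h (LFC 0.44, adjusted p = 0.00159).

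In arsenic at 24 h, 6.54% of all genes were higher and 7.75% lower. Of the hnRNP genes 0 were higher and 4 lower (HNRNPDL, HNRNPL, HNRNPR, and HNRNPU), and of the core spliceosome genes 0 were higher and 2 lower (SNRPD1 and SNRPG). Speckle proteins had 0 higher and 2 lower (SRRM1 and SREK1). In cadmium at 24 h, 1.56% were higher and 0.632% lower, and RSRC2 was the only gene called in the 6 lists. UPF3B, which links the exon junction complex to decay, was higher at 12 h in arsenic, cadmium, and mercury (LFC 0.48, 0.37, and 0.40, adjusted p = 0.00812, 0.0492, and 0.0157). These 3 comparisons share the same non-treated libraries.

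Of the close relatives of the 10 genes, SRSF4 was lower in arsenic at 24 h, with 102 ± 5.89 CPM against 147 ± 11.6 CPM (LFC -0.54, adjusted p = 0.000102). SRSF8 was higher in cadmium at 6 and 12 h (LFC 0.85 and 0.61, adjusted p = 0.00268 and 0.0221), with 43.96 ± 2.98 CPM against 24.3 ± 6.60 CPM at 6 h. SRSF9 was not called in 15 comparisons (LFC -0.27 to 0.11, lowest adjusted p = 0.0940). The other CLK kinases are CLK2 and CLK3. CLK2 was lower in mercury at 3 h (LFC -0.78, SE 0.22, adjusted p = 0.0478), where CLK1 was higher, and had an LFC of -0.58 at 12 h (adjusted p = 0.0528). CLK3 was higher in mercury at 24 h (LFC 0.54, SE 0.17, adjusted p = 0.0103) and had LFCs of 0.22 and 0.13 at 1.5 and 3 h (adjusted p = 0.997 and 0.937). PPP1CA, a catalytic subunit of protein phosphatase 1 that can remove phosphate from SR proteins, was lower at 24 h in arsenic and mercury (LFC -0.50 and -0.42, adjusted p = 0.00362 and 0.00842).

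**Figure D4:**
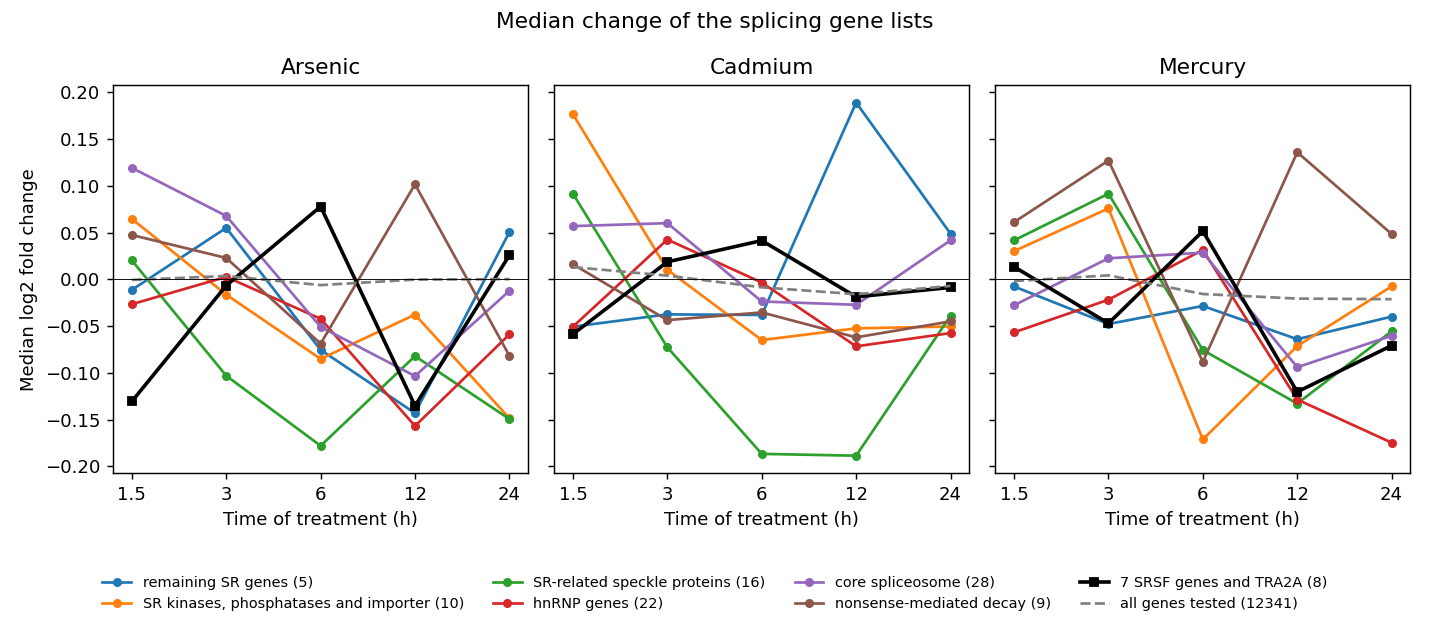
Median LFC against non-treated cells (vertical axis) over the tested genes of each of the 6 lists, of the 7 SRSF genes and TRA2A (black), and of all 12341 genes (dashed), against time of treatment in h for arsenic, cadmium, and mercury. The number of genes is given in the legend; all medians of the lists lie between -0.19 and 0.19, and the hnRNP genes reach -0.17 in mercury at 24 h.

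Genes with the most similar course were searched by Pearson correlation of mean log2 CPM over the 20 groups, among the 7253 genes that averaged 50 counts or more. The 20 groups share the time points, so genes that vary with time alone also correlate, and the values are descriptions. For CLK1, the most similar genes were JMJD6, a lysyl hydroxylase that acts on splicing factors, with 0.853, CDC42SE1 with 0.844, and RIPK2 with 0.818. Among the 10 genes themselves, SRSF2 and SRSF3 correlated at 0.832 and SRSF5 and SRSF6 at 0.807, and each of these pairs was within the top 3 for at least 1 partner. CLK1 and CLK4 correlated at -0.03 over the same groups. SRSF11 was most similar to SREK1, an SR-related splicing regulator, with 0.880. For the remaining genes, the closest were NAP1L1 for SRSF1 (0.806), IFRD2 for SRSF2 (0.882), AFG3L2 for SRSF3 (0.843), SSR1 for SRSF5 (0.809), PBDC1 for SRSF6 (0.887), MYL12A for SRSF7 (0.848), EXOSC8 for CLK4 (0.790), and SP3 for TRA2A (0.780).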

How the data were processed

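RNA of 1321N1 cells was sequenced from the 3′ end. The authors aligned 100-base reads to GRCh38 with STAR 2.7.9a, counted them per gene on exons of GENCODE basic, strand-specifically and without reads that overlapped more than 1 gene, and deposited whole-number counts without normalization. The 92 spike-in sequences had 0 counts and were left out. A model of all 60 libraries, 1 term per group, was fitted by edgeR 4.0.16 under R 4.3.3, with TMM factors of 0.934 to 1.03, and genes kept by filterByExpr (minimum count 10, minimum total 15), and were tested by the quasi-likelihood test with Benjamini-Hochberg adjustment within each comparison. Levels are CPM of the TMM-normalized library size, except those of the cell type markers, which are relative to the raw library total. The procedure was tested on simulated data.

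The 10 genes, the lists, and the motifs were chosen with earlier results of these data known. In each list, up to 3 tested genes with the largest mean absolute LFC over 15 comparisons were named, and others where few were called. Replicates were checked for copies (lowest chi-square per degree of freedom 2.02). Same-numbered libraries of a metal and its control deviated from their group means with a median correlation of -0.00799 (45 pairs, 0 above 0.1), so that the numbers were not taken as pairs. Alternatives were DESeq2 1.42.0, RLE size factors, no filter, a stricter filter (at least 50 counts in 3 libraries), a block for replicate number, fits restricted to the 6 libraries of a comparison, and leaving out each library. Overlaps of gene ends were read from GENCODE v44 over the last 400 exonic bases of each transcript, which may differ from the version that was counted. They were sought among all annotated exons, whereas the counts used the basic set, so they may not all apply to the counts. Promoters of SRSF2 and TRA2A were not analysed here, nor were isoforms.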

Additional observations from a re-analysis of the deposited data

Results flagged for a closer look

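For 3 of the 10 genes, effects differed between metals or between time points in a test of the difference itself (edgeR's quasi-likelihood test with Benjamini-Hochberg adjustment). Of all genes, 0% to 20% were called in a single comparison of metals, and 0.0324% to 1.92% for a change between time points. The share of all genes called in at least 1 of these comparisons was not determined, so the count of 3 genes has no like share beside it. CLK1 was lower in arsenic than in mercury at 1.5, 12, and 24 h, with LFCs of -0.91, -1.56, and -1.08, and lower in cadmium than in mercury at 1.5 and 24 h, with LFCs of -0.89 and -0.92. It was also lower in arsenic than in cadmium at 12 h, with an LFC of -1.08. In all 6 of these comparisons the 3 libraries of each metal did not overlap. The comparisons were picked because they were called, so this lack of overlap adds no separate evidence. SRSF7 was lower in arsenic than in cadmium and mercury at 12 h, with LFCs of -0.47 and -0.41. For SRSF2, the mercury effect at 12 h was lower than that at 6 h by an LFC of -0.61. The SRSF7 calls against cadmium and mercury were lost in 4 and 5 of 6 fits that each left out 1 library. The SRSF2 call was lost in 9 of 12 such fits.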

How the results depend on the processing

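None of the 17 calls reversed under any alternative, and 8 of them lost significance in at least 1 fit, 32 times in fits without 1 library and 1 time in a fit of only the 6 libraries compared. The CLK1 calls for mercury at 1.5, 12, and 24 h and for arsenic and mercury at 1.5, 12, and 24 h, those for arsenic and cadmium at 12 h and for cadmium and mercury at 24 h, and SRSF5 at 12 h passed under every alternative run for them. Called genes against non-treated cells numbered 1 for arsenic and 2 without the low-count filter, which added SRSF2 at 12 h, 0 for cadmium and 1 with the stricter filter or DESeq2 (SRSF11 at 6 h), and 4 for mercury and 4 to 6 under the other settings. The replicate block gave 5 calls for mercury, adding SRSF11 at 24 h (LFC -0.22, adjusted p = 0.0469), and changed no other call. Without 1 library, the counts ranged from 0 to 2 for arsenic, stayed at 0 for cadmium, and ranged from 3 to 5 for mercury. Between metals, they ranged from 1 to 3 for arsenic and cadmium (2 with all libraries), 3 to 5 for arsenic and mercury (4), and 1 to 3 for cadmium and mercury (2). They ranged from 1 to 4 for non-treated cells against 1.5 h (3) and from 0 to 1 for the change of the mercury effect (1). With 1 library left out, CLK1 rose in non-treated cells at 12 h (without replicate 3, LFC 0.78, adjusted p = 0.0175). For the 8 SR genes, 6 of 720 tests without 1 library were called. Besides those of SRSF2, these included SRSF11 in arsenic at 24 h without arsenic replicate 3 (LFC -0.34, adjusted p = 0.00987). With all libraries, that LFC was -0.20 (adjusted p = 0.130). SRSF11 in mercury at 24 h was called without mercury replicate 3 (LFC -0.26, adjusted p = 0.0479). SRSF6 in mercury at 12 h was called without replicate 2 of the non-treated cells (LFC -0.38, adjusted p = 0.0254). The cause of these changes was not tested. CLK4, with 6 to 40 reads, had a median SE of 0.39.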
